A study of Rattus norvegicus with 6 samples.

Results

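Metallothioneins and the membrane proteins that carry zinc, copper and iron were followed in rat renal cortex after repeated dosing with sulfone bis(p-chlorophenyl), a small chlorinated aromatic compound. The genes were Mt1, Mt2A, Mt3, Slc30a1, Slc39a8, Slc39a14, Slc31a1, Atp7b, Slc11a2 and Slc40a1, taken by name and matched to array probes through the RefSeq accession of each probe. All 10 were measured, by 25 probes, among 12118 genes tested, and all 25 probes were well above background on all 6 arrays. The treated group was 3 male Sprague-Dawley (Crl:CD(SD)) rats given 250 mg/kg of the sulfone daily for 4 weeks, and the vehicle group was 3 such rats given corn oil, the dosing vehicle, for the same time. All animals were intact rats, 5 weeks old when bought, and each gave 1 Agilent 1-colour array. Levels are log2 signals relative to the 75th percentile of the same array, so that 0 is that percentile. Differences are treated minus vehicle on the log2 scale, with the standard error (SE) of the limma fit.

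Metallothioneins are small cysteine-rich proteins that bind zinc and copper, and in the kidney also cadmium. The Mt1 and Mt2A genes are switched on by the zinc-sensing transcription factor MTF-1, by glucocorticoids and by oxidants. Zinc leaves the cytosol through SLC30 (ZnT) proteins and enters it through SLC39 (ZIP) proteins. Copper enters cells through CTR1 and is moved into the secretory route or out of the cell by copper ATPases, while ferrous iron enters through DMT1 and leaves through ferroportin, which the liver hormone hepcidin removes from the cell surface. The kidney reabsorbs filtered metals, largely in the proximal tubule.

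In RefSeq's rat gene table Mt1, Mt2A and Mt3 lie next to each other on chromosome 19, with Mt4 beside them. The 250 bases before the annotated start of Mt1, Mt2A, Mt3 and the zinc exporter Slc30a1 are shown. MTF-1 is known, from mouse and human work, to act on Slc30a1 and on the counterparts of Mt1 and Mt2A. Whether it acts on Mt3 was not tested. The groups overlapped for the metallothioneins and not for Slc30a1. Sequences are RefSeq's (GRCr8), on the strand of the gene, and capitals mark the metal response element cores TGCACNC and TGCGCNC found on either strand.
Mt1 (chr19:10832976-10833225, minus strand): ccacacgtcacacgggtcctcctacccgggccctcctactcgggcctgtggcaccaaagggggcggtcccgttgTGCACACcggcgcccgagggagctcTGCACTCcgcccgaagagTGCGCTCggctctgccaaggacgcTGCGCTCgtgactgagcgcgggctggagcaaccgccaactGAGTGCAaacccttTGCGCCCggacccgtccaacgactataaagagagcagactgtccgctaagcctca
Mt2A (chr19:10838709-10838958, minus strand): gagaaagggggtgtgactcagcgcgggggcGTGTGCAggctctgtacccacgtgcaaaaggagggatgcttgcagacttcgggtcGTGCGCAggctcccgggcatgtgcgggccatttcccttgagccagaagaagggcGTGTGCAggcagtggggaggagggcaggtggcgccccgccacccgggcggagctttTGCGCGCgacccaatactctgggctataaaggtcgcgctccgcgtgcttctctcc
Mt3 (chr19:10856081-10856330, minus strand): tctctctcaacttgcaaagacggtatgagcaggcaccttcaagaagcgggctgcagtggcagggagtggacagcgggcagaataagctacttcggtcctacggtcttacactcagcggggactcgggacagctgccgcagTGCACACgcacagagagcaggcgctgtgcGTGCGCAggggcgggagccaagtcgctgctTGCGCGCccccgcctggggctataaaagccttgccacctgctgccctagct
Slc30a1 (chr13:106021769-106022018, plus strand): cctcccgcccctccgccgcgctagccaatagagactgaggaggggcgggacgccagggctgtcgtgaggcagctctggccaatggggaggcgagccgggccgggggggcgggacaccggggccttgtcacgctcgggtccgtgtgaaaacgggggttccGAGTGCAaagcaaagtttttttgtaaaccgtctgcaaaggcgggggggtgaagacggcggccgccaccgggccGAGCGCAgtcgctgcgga
The Mt1 window held 6 cores, Mt2A 4, Mt3 3 and Slc30a1 2, and no 2 of them overlapped. Over 27457 rat promoters of this length, 5.13% held at least 2 such cores, 1.25% at least 3, 0.277% at least 4 and 0.0219% at least 6. Atp7b had 1 core, and these letters did not occur in the windows of Slc39a8, Slc31a1, Slc11a2 or Slc40a1. No window of Slc39a14 was analysed here. The antioxidant response element core TGACNNNGC, searched on both strands, occurred in the windows of Mt1, Mt2A, Slc30a1 and Slc39a8 and in 10.2% of all promoters. A match describes the letters and does not show that a factor binds.

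None of the 10 genes passed a limma adjusted p of 0.05 over all probes, a threshold that 3 of 40643 probes (0.00738%) passed. By the weaker measure of an unadjusted limma p under 0.05, 4 of the 10 differed, 2 higher (Slc30a1 and Slc39a14) and 2 lower (Slc31a1 and Slc40a1), or 40%, where 21.4% of all tested genes did so (10.1% higher and 11.3% lower). The treated and vehicle values of the same 4 genes did not overlap, as was so for 30.7% of all tested genes, 13.9% higher and 16.8% lower. The median difference over the 10 genes was 0.09, against -0.01 over all tested genes, and the median absolute difference was 0.24 against 0.16.

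The arrays were spread unevenly over 2 slides, and this bears on each comparison. Treated 1 shared slide 1 with the 3 vehicle arrays, while treated 2 and treated 3 were alone on slide 2, and each slide had its own scan. Values given as within slide 1 set treated 1 against the mean of the vehicle arrays, which is also what a fit that takes slide as a fixed block gives. Leaving out treated 1 makes slide and treatment the same split, which cannot be told apart, and 4307 of 40643 probes then passed. All 6 proximal tubule markers (Lrp2, Cubn, Slc34a1, Slc5a2, Slc5a12, Aqp1) were well above background on all arrays, as fits the tissue label.

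**Figure D1:**
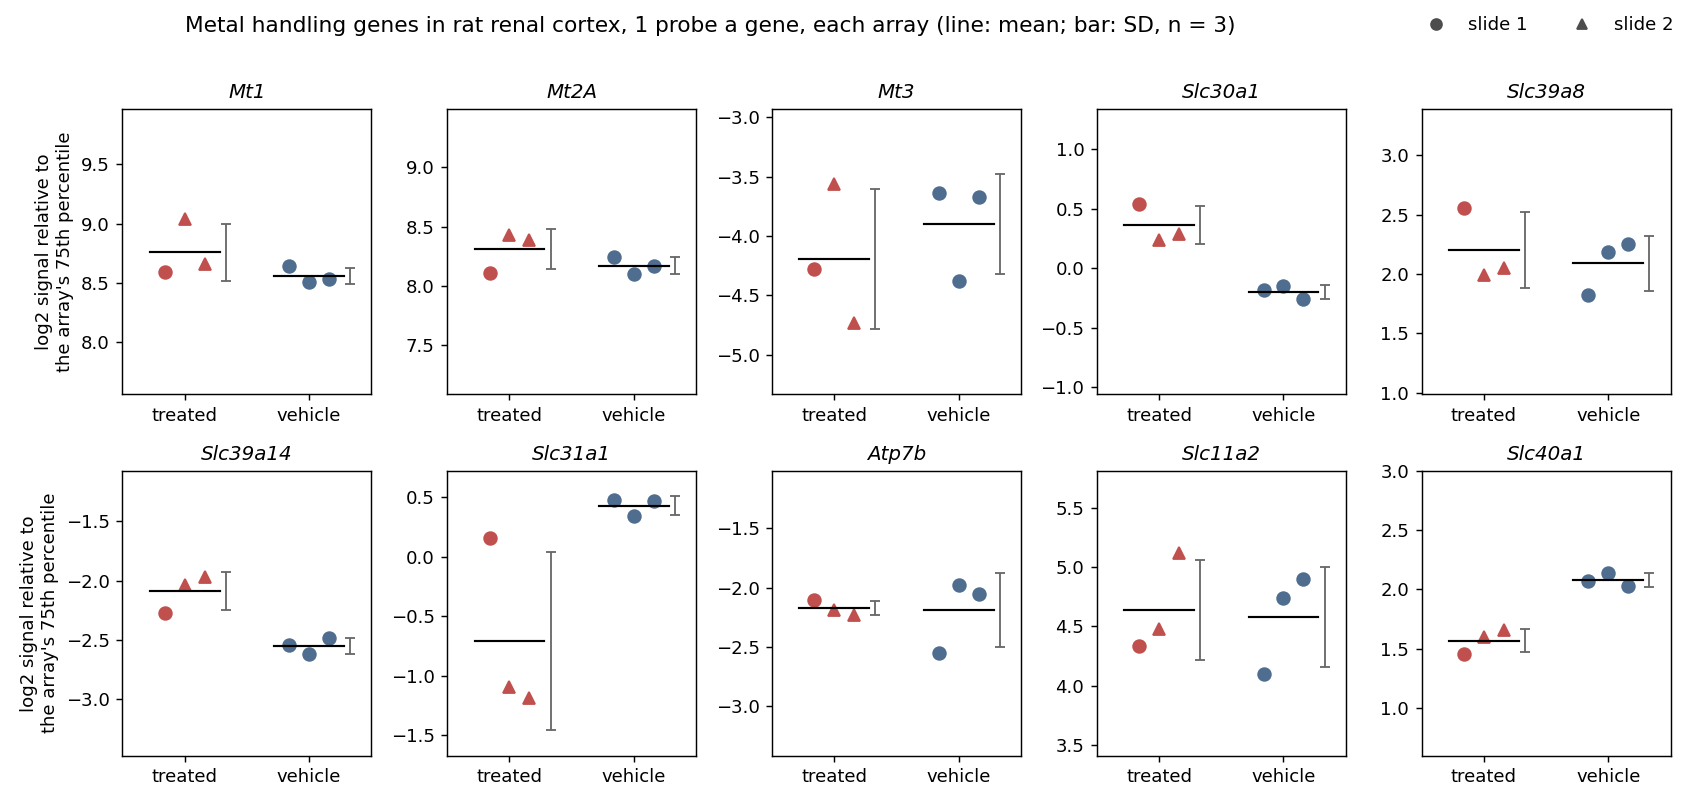
Log2 signal of the brightest probe of each gene on every array, relative to the array's 75th percentile, with treated (red) left of vehicle (blue), circles for slide 1, triangles for slide 2, a line for the mean and a bar for the SD (n = 3). Every panel spans the same height in log2 units. Slc40a1, Slc30a1, Slc39a14 and Slc31a1 separate the groups with treated 1 on slide 1 included, but for Slc31a1 treated 2 and 3 stand far from the other arrays.

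The major metallothionein mRNAs were bright on every array and their groups overlapped. Mt1, the main inducible metallothionein of rat kidney together with Mt2A, had 8.59, 9.04 and 8.66 in treated 1, 2 and 3 and 8.64, 8.51 and 8.53 in vehicle 1, 2 and 3. Treated 2 was the highest array, treated 3 lay just above the vehicle arrays and treated 1 lay among them. The difference was 0.20 (SE 0.13, limma adjusted p = 0.427), with a 95% interval of -0.13 to 0.53, and was 0.03 within slide 1. The other Mt1 probe gave 0.08 (SE 0.08).

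Mt2A encodes the second widely expressed metallothionein. It had 8.11, 8.43 and 8.39 in treated 1, 2 and 3, against 8.24, 8.10 and 8.17 in vehicle 1, 2 and 3, a difference of 0.14 (SE 0.11, limma adjusted p = 0.489) with a 95% interval of -0.12 to 0.40. Treated 1 lay among the vehicle arrays and the slide 2 arrays lay above all of slide 1, so that the difference within slide 1 was -0.06. Its other probes gave 0.24 (SE 0.14) and 0.35 (SE 0.15), and in all 3 the groups overlapped. The brightest raw spot among these genes reached 49.1% to 58% of the scanner's saturation value in the treated arrays and 50.8% to 52.9% in the vehicle arrays, and no probe carried the saturation flag. Mt1 and Mt2A transcripts are alike in sequence, and binding of each other's probes was not tested.

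Mt3, the metallothionein known best from neurons, was dim and variable. Its brighter probe read -4.28, -3.56 and -4.73 in treated 1, 2 and 3 and -3.64, -4.38 and -3.67 in vehicle 1, 2 and 3. The spread within each group (SD 0.59 treated, 0.42 vehicle) exceeded the difference of -0.29 (SE 0.35, limma adjusted p = 0.657). The other Mt3 probe followed the same order in the treated arrays, at -4.24, -3.48 and -4.89, with a difference of -0.27 (SE 0.35).

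Slc30a1 (ZnT1), which exports zinc across the plasma membrane, had higher values in treated cortex, short of the adjusted threshold. It had 0.54, 0.24 and 0.29 in treated 1, 2 and 3, against -0.18, -0.15 and -0.26 in vehicle 1, 2 and 3. Every treated array lay above every vehicle array, and the highest was the treated array on slide 1. The difference was 0.55 (SE 0.10, 1.47-fold), with a 95% interval of 0.30 to 0.81 and a limma adjusted p of 0.102, and it was 0.74 within slide 1. Without treated 1 it was 0.46 and passed (limma adjusted p = 0.0278), with slide and treatment then inseparable. A single probe measured the gene.

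Slc39a14 (ZIP14), which carries zinc, non-transferrin-bound iron and manganese into cells, also had higher values in treated cortex, short of the threshold. Its brightest probe read -2.27, -2.04 and -1.97 in treated 1, 2 and 3 and -2.54, -2.62 and -2.48 in vehicle 1, 2 and 3. The groups did not overlap, and the slide 2 arrays were the highest. The difference was 0.45 (SE 0.10, 1.37-fold, limma adjusted p = 0.127) and 0.27 within slide 1. Without treated 1 it was 0.54 and passed (limma adjusted p = 0.0234), with slide and treatment then inseparable.

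The 3 dimmer Slc39a14 probes gave 0.61 (SE 0.15), 0.30 (SE 0.19) and 0.63 (SE 0.11). Of the 4 probes, only the one at 0.30 had overlapping groups. Treated 1 alone exceeded the vehicle mean by 0.48, 0.53 and 0.66 on the dimmer probes, so the smaller slide 1 value belonged to the brightest probe. Liver expresses Slc39a14 strongly, and liver transcripts varied between these samples. Albumin mRNA (Alb) had 1.26, 2.12 and 3.92 in treated 1, 2 and 3 and 3.49, 2.43 and -0.28 in vehicle 1, 2 and 3, and Ttr (transthyretin) ranged from 0.76 to 3.70 in treated and from -0.90 to 3.12 in vehicle arrays. The summed level of the 11 liver transcripts tested of 12 ran from 15.1 to 46.7 in treated and from 12.1 to 29.9 in vehicle arrays, in units of the 75th percentile, and Tat was not well above background. Within the vehicle group, 2 of the dimmer Slc39a14 probes (-2.86, -3.27 and -3.13, and -2.94, -3.55 and -3.24 in vehicle 1, 2 and 3) were highest in vehicle 1, which also had the highest Alb. The brightest probe and the dimmest (-4.84, -4.81 and -4.55) were highest in vehicle 3, which had the lowest Alb. The part of liver transcripts in the Slc39a14 values was not tested.

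Slc39a8 (ZIP8), a relative of ZIP14 that carries zinc, manganese and cadmium, did not separate the groups. Its brightest probe read 2.56, 1.99 and 2.05 in treated 1, 2 and 3, against 1.82, 2.19 and 2.25 in vehicle 1, 2 and 3, a difference of 0.11 (SE 0.20, limma adjusted p = 0.763) and 0.48 within slide 1. The highest array was treated 1 and the lowest vehicle 1. The dimmer probes gave 0.18 (SE 0.09) and -0.05 (SE 0.11), with no overlap only for the first. The straight proximal tubule marker Slc7a13, picked for mention after its values were seen, was likewise highest in treated 1 and lowest in vehicle 1, with 7.43, 6.12 and 6.13 in treated and 2.50, 5.27 and 6.26 in vehicle arrays. The thick limb markers Umod and Slc12a1 and the adipose marker Cidec had their highest and lowest values in the same arrays. These extremes were thus not particular to the straight proximal tubule, whose marker Slc5a1 was highest in treated 3. All 4 markers of that segment were tested, their summed level ran from 74.6 to 186 in treated and from 6.43 to 82.7 in vehicle arrays, and its part in the Slc39a8 values was not tested. In pieces of cortex, fewer cells of a type and less RNA per cell cannot be told apart.

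Slc31a1 (CTR1), the high-affinity copper importer, had the widest spread of the 10 genes, at 1.67 between its extreme arrays. It had 0.16, -1.10 and -1.19 in treated 1, 2 and 3, against 0.48, 0.34 and 0.47 in vehicle 1, 2 and 3. All treated arrays were lower than all vehicle arrays, but treated 1 was close to the vehicle arrays of its slide and the 2 arrays of slide 2 were far below. The difference was -1.14 (SE 0.36, 2.21-fold lower, limma adjusted p = 0.182), and -0.27 within slide 1. Without treated 1 it was -1.58 (limma adjusted p = 0.00588), where slide and treatment coincide.

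For 19% of tested genes both slide 2 arrays lay below all 4 arrays of slide 1, and for 21.2% they lay above. For Slc31a1 the gap from treated 1 to the mean of treated 2 and 3 was -1.30. A downward gap at least as large occurred in 110 of 12118 genes (0.908%). That cutoff came from the gene with the widest spread of the 10, so the share is not a test. Upward gaps of that size were not counted. Slc31a1 was the only one of the 10 with both slide 2 arrays lowest, while Mt1, Mt2A and Slc39a14 had both highest. A single probe measured Slc31a1, and whether its split follows slide or animal was not tested.

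By root mean square difference over the 6 arrays, after centring each gene on its own mean, the genes closest to Slc31a1 among 11685 searched were Supt16h (0.0504), Ppp1r14bl (0.113), Pex26 (0.138), Ccer1 (0.157) and Cys1 (0.166). Supt16h deviated from its mean by 0.37, -0.96 and -1.09 in treated 1, 2 and 3 and by 0.54, 0.54 and 0.61 in vehicle 1, 2 and 3, the same break between slides. For Mt1 the closest were Rem1 (0.0216), Tmem39a (0.0392), Timm8a1 (0.0401), Itch (0.0435) and Slc15a4 (0.0464), each highest in treated 2. With 6 arrays and this many genes, close matches describe the arrays and nothing more.

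Atp7b, the copper ATPase that is mutated in Wilson disease, did not separate the groups. Its brightest probe read -2.10, -2.19 and -2.23 in treated 1, 2 and 3 and -2.55, -1.98 and -2.05 in vehicle 1, 2 and 3, a difference of 0.02 (SE 0.16, limma adjusted p = 0.954) with a 95% interval of -0.38 to 0.42. Vehicle 1 was the lowest array. A second probe gave 0.05 (SE 0.10, 95% interval -0.20 to 0.30). Only the dimmest probe separated the groups, at 0.37 (SE 0.14, limma adjusted p = 0.223). Its 95% interval of 0.03 to 0.72 overlapped those of the other probes.

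Slc40a1 (ferroportin), the only known iron exporter of mammalian cells, had lower values in treated cortex on each of its 3 probes, short of the threshold. The brightest read 1.46, 1.60 and 1.66 in treated 1, 2 and 3, against 2.07, 2.14 and 2.03 in vehicle 1, 2 and 3. Groups stood apart with little spread in either, and the lowest array was the treated one on slide 1. The difference was -0.51 (SE 0.08, 1.42-fold lower, 95% interval -0.71 to -0.30, limma adjusted p = 0.0952), the smallest adjusted p among the brightest probes of the 10 genes, and -0.62 within slide 1.

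The second Slc40a1 probe read 0.85, 1.10 and 1.09 in treated 1, 2 and 3 and 1.38, 1.48 and 1.48 in vehicle 1, 2 and 3, a difference of -0.43 (SE 0.09). The dimmest gave -0.41 (SE 0.14), and neither of these had overlapping groups. Without treated 1 the brightest probe differed by -0.45 and passed (limma adjusted p = 0.0289), with slide and treatment then inseparable. Macrophages also express ferroportin, and 3 of their 4 markers were tested, with a summed level of 2.03 to 2.81 in treated and 2.7 to 3.55 in vehicle arrays. Of them Adgre1 had -0.69, -1.08 and -1.57 in treated 1, 2 and 3 and -0.07, -0.48 and -0.25 in vehicle 1, 2 and 3. Cd68 and Csf1r differed by -0.38 (SE 0.16) and -0.23 (SE 0.15), with overlapping groups. Within slide 1 Adgre1, Cd68 and Csf1r differed by -0.42, -0.09 and -0.02. Cd163 was well above background on at most 1 array. Their part in the Slc40a1 values was not tested.

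Slc11a2 (DMT1), the proton-coupled importer of ferrous iron, varied between animals in both groups. It had 4.33, 4.48 and 5.12 in treated 1, 2 and 3 and 4.10, 4.74 and 4.90 in vehicle 1, 2 and 3. Ranges overlapped almost fully. The difference was 0.06 (SE 0.29, limma adjusted p = 0.919), with a 95% interval of -0.64 to 0.76, and was -0.25 within slide 1. The other probes kept the same order of arrays within the treated group and gave 0.05 (SE 0.28) and 0.16 (SE 0.16).

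**Figure D2:**
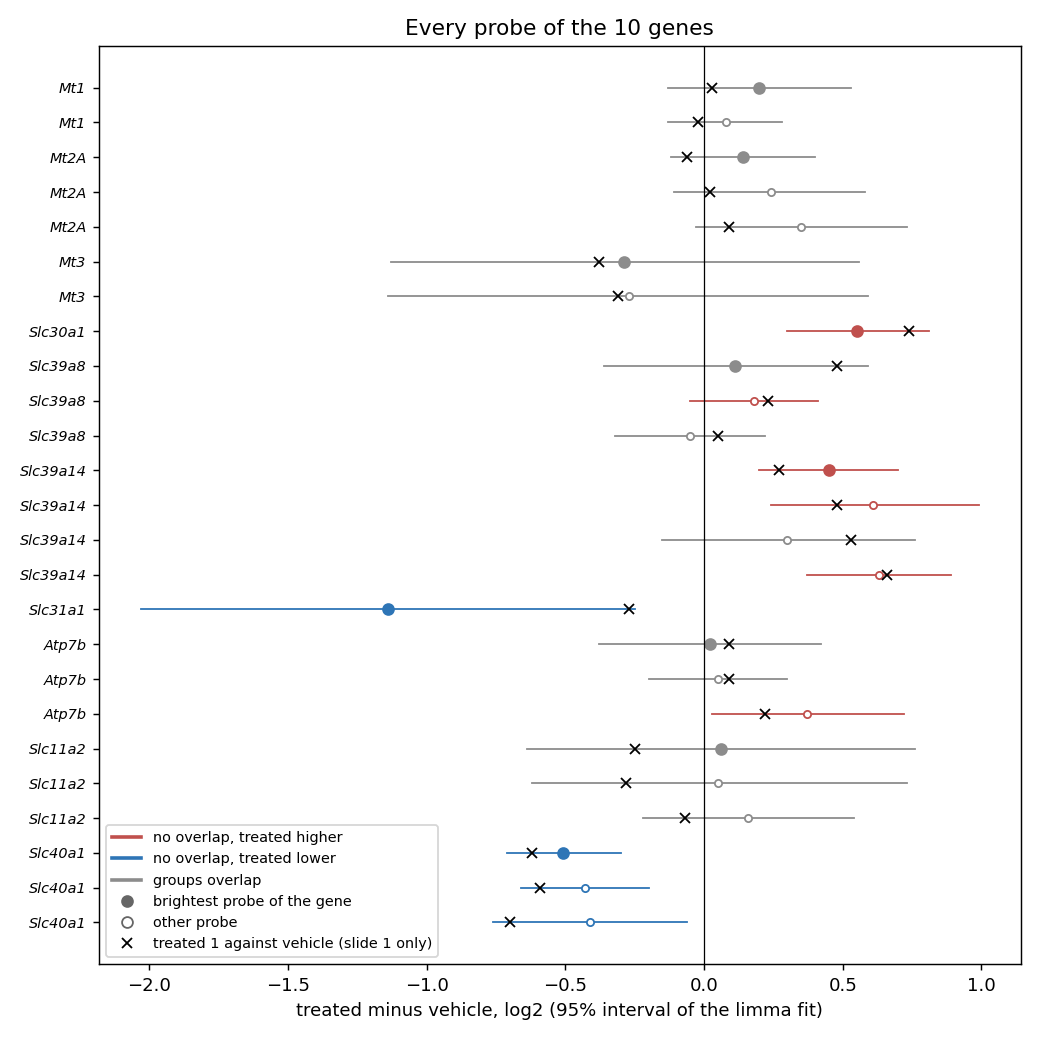
Treated minus vehicle (log2) for all 25 probes, with the 95% interval of the limma fit, coloured by whether the 3 treated and 3 vehicle values overlap, and a cross for treated 1 against the vehicle mean on slide 1. The 3 Slc40a1 probes all lie left of 0 with their crosses, Slc30a1 lies right of 0 at 0.55, and for Slc31a1 the cross at -0.27 is far from the estimate of -1.14.

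The wider metal handling genes were examined in 5 further lists, of which 61 of 78 genes were tested. None passed over all probes, and 15 had an unadjusted limma p under 0.05, 9 higher and 6 lower (24.6%, against 21.4% of all tested genes). Their median difference was 0.08. The share thus lay near that of the whole array.

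Among 7 tested zinc exporters, 1 was higher and 1 lower by that measure. Slc30a3 (ZnT3), which loads zinc into synaptic vesicles, had 1.37, 1.75 and 1.67 in treated and 1.22, 1.09 and 1.17 in vehicle arrays, a difference of 0.43 (SE 0.12, limma adjusted p = 0.156) and 0.20 within slide 1. Tmem163, a zinc efflux protein, differed by -0.89 (SE 0.26), or -0.58 within slide 1. Of 9 zinc importers, Slc39a4 (ZIP4), the intestinal zinc importer mutated in acrodermatitis enteropathica, had 0.82, 2.17 and 1.76 in treated and -0.14, 0.60 and 0.82 in vehicle arrays. Treated 1 was level with vehicle 3, and the difference of 1.16 (SE 0.41) was 0.39 within slide 1. Slc39a11 (ZIP11) differed by -0.29 (SE 0.12), with overlapping groups.

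Of 15 copper handling genes, Atp7a, the copper ATPase mutated in Menkes disease, had -1.62, -1.46 and -1.62 in treated and -1.39, 0.09 and 0.02 in vehicle arrays. The difference was -1.14 (SE 0.40, limma adjusted p = 0.204), yet vehicle 1 was nearer to the treated arrays than to the other vehicle arrays. Steap4, a metalloreductase, differed by 0.53 (SE 0.15). The copper chaperones Atox1, Ccs and Cox17, picked for mention after their values were seen, differed by -0.07, 0.14 and 0.03.

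Iron handling had 25 tested genes, with 5 higher and 1 lower at an unadjusted limma p under 0.05. That share of 24% lay near the 21.4% of all tested genes. The median difference was 0.20. Against the vehicle mean, the list median was 0.07 in treated 1, on slide 1, and 0.15 and 0.26 in treated 2 and 3. Ncoa4, the receptor that delivers ferritin to lysosomes, had 2.05, 2.25 and 2.10 in treated and 1.71, 1.50 and 1.46 in vehicle arrays. Every treated array exceeded every vehicle array, and the difference was 0.57 (SE 0.10, limma adjusted p = 0.0958), or 0.49 within slide 1. Hmox1, the inducible heme oxygenase that frees iron from heme, differed by 2.18 (SE 0.63) but by 0.79 within slide 1. Tf, the plasma iron carrier made mainly in liver, differed by 1.11 (SE 0.37) with overlapping groups. Nfs1, the desulfurase that starts iron-sulphur clusters, and the lysosomal channel Mcoln1 differed by 0.25 (SE 0.10) and 0.19 (SE 0.08). Within slide 1 Nfs1 and Mcoln1 differed by 0.07 and 0.30. Slc46a1, a folate transporter also described as a heme carrier, differed by -0.32 (SE 0.08).

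The ferritin subunit genes Fth1 and Ftl1 and the transferrin receptor gene Tfrc, likewise picked for mention after their values were seen, differed by 0.21 (SE 0.09), 0.20 (SE 0.14) and 0.11 (SE 0.17). Within slide 1 Fth1, Ftl1 and Tfrc differed by 0.08, -0.10 and 0.14. Hamp, which encodes hepcidin, had -4.12, -3.05 and -2.09 in treated and -3.46, -3.55 and -4.21 in vehicle arrays, without separation. Liver makes both Tf and Hamp mRNA, and the part of the liver transcripts given beside Slc39a14 in their values was not tested. Tfr2 and Hephl1 were not well above background, and Ireb2 was left out for an outlier flag.

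In the metal sensing list, Mtf1, which encodes MTF-1 itself, had lower values on treated arrays. It had -2.51, -2.35 and -2.68 in treated 1, 2 and 3 and -2.08, -1.88 and -2.20 in vehicle 1, 2 and 3. Groups did not overlap, with a difference of -0.46 (SE 0.13, limma adjusted p = 0.153), also -0.46 within slide 1. Slc41a1, a magnesium transporter, differed by 0.76 (SE 0.14, limma adjusted p = 0.1), or 0.53 within slide 1. Trpm7, a channel kinase that passes magnesium and zinc, differed by -0.22 (SE 0.07). Mt4 did not exceed background on any array by the scanner software's flag.

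**Figure D3:**
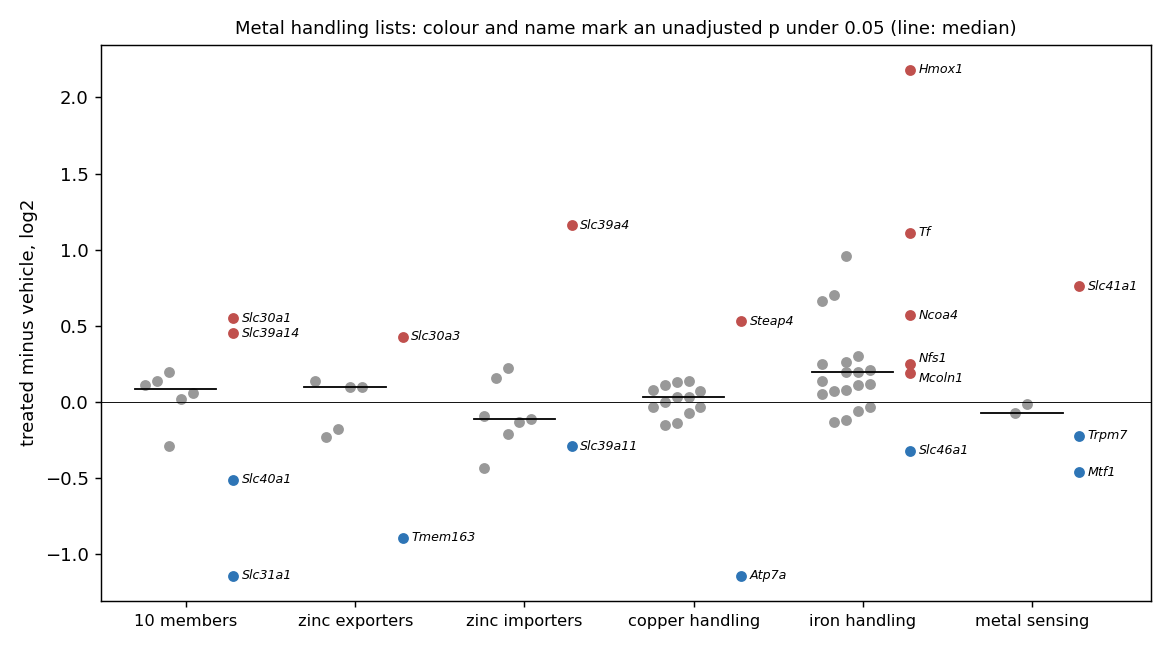
Treated minus vehicle (log2) for each tested gene of the 10 and of the 5 further lists, 1 probe a gene, with a line at each list's median. Named points have an unadjusted limma p under 0.05 (red higher, blue lower) and none passed over all probes. Most points lie between -0.5 and 0.5, and Hmox1 at 2.18 is the highest.

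Glucocorticoids induce Mt1 and Mt2A. Fkbp5, another gene that they induce, had 3.51, 3.86 and 4.12 in treated 1, 2 and 3. In vehicle 1, 2 and 3 it had 2.35, 1.40 and 1.87. That difference was 1.96 (SE 0.27, limma adjusted p = 0.0797). Per1, another such gene, had -1.67, -1.48 and -2.24 in treated and -1.36, -2.50 and -2.83 in vehicle arrays, and differed by 0.43 (SE 0.41). Of the 11 tested genes of the glucocorticoid list, 3 had an unadjusted limma p under 0.05, all higher (27.3%, against 21.4% of all tested genes). Mt2A and Mt1 had the smallest differences of the list, at 0.14 and 0.20 beside a list median of 0.55, which includes them. The part of glucocorticoids in the metallothionein values was not tested.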

How the data were processed

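Per the labels, total RNA of renal cortex was labelled with Cy3 and hybridised to 1-colour Agilent rat arrays. The authors deposited spot intensity values from Agilent Feature Extraction 10.7.1.1 (per the file headers, 10.7 in the submitters' processing notes), and its flags of well above background, saturation and outliers take other codes of 0 or 1, as deposited. The processed signal is already background-subtracted. The authors' deposited series table of scaled intensity values served as an alternative.

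Log2 processed signals, less the 75th percentile of their array (910.3 to 1101), were tested for the 40643 probes that either group had well above background throughout, without 11 outlier-flagged probes, in limma 3.58.1 under R 4.3.3, by two-sided moderated tests adjusted after Benjamini-Hochberg. Accessions named 28206 of 61537 probes through RefSeq's GRCr8 gene table. A gene was represented by its brightest probe. Between 66.1% and 68.2% of probes were well above background. The small number of arrays limits precision. P-values rest on the moderated spread between the 3 arrays of each group. In the treated group that spread mixes differences between animals with the difference between slides.

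The named genes were all members, list genes with an unadjusted p under 0.05 (at most 6 a list, by smallest p), the 5 closest patterns to Mt1 and to the widest member, and Alb, Ttr, Fkbp5 and Per1. Any other named gene, such as Hamp, the macrophage markers and the blood transcripts, counts as chosen after its values were seen. Members and lists were chosen with earlier results of these data known. Alternatives covered background correction (with the median spot signal, since the mean is not in the files), normalization, dim probes, slide, replicate number, variance model, value source, probe choice, the threshold and each array left out. The fit was tested on simulated data with independent noise and no slide effect, which cannot show how slide bears on it. Replicate numbers were not taken as pairs in the main fit. Same-numbered deviations correlated at -0.21, 0.01 and -0.16 across probes, and other-numbered ones at -0.1 to 0.22. With 3 arrays a group, and treated arrays split over slides, these correlations cannot decide whether samples were paired.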

Additional observations from a re-analysis of the deposited data

How the results depend on the processing

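Slc30a1 and Slc39a14 (higher) and Slc31a1 and Slc40a1 (lower) kept their direction under all 16 alternatives run for them, at 0.46 to 0.74, 0.27 to 0.54, -1.58 to -0.27 and -0.62 to -0.45, and each passed only without treated 1. Their limma adjusted p ranged from 0.0278 to 0.323, 0.0234 to 0.366, 0.00588 to 0.4 and 0.0289 to 0.323. Mt1 and Mt3 kept their direction and did not pass. With slide as a fixed block Mt2A was at -0.06 and Slc11a2 at -0.25, and with slide as a random block Slc11a2 was at -0.08. Without treated 1, Slc39a8 was at -0.07 and Atp7b at -0.02. Without vehicle 1, Slc39a8 was at -0.02, Atp7b at -0.16 and Slc11a2 at -0.18, and without treated 3 Slc11a2 was at -0.18. With single arrays left out these 3 genes reached at most 0.22 (Slc39a8), 0.13 (Atp7b) and 0.22 (Slc11a2). The count of members with an unadjusted p under 0.05, added after seeing the data, lay between 3 and 5.

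The median over the members was 0.09, and -0.02 with slide as a fixed block, and -0.09 (without vehicle 1) to 0.16 (without vehicle 3) with single arrays left out. The median of the other lists was 0.08, -0.02 with slide as a fixed block and 0.01 as a random block. Over all probes 3 passed, against 137 with normexp, 17 with median centring, 1 without a filter, 1 with slide as a fixed block, 156 with trend and robust limma and 667 at an adjusted p of 0.1. With limma 0 passed among probes above background on every array (8001 at an unadjusted p under 0.05) and 0 with the replicate block (7240). With single arrays left out the count ran from 0 (without treated 2 or vehicle 2, where 5948 and 4954 had an unadjusted p under 0.05) to 4307 (without treated 1, where slide and treatment coincide). The replicate block changed no member's call. Causes of the other shifts were not tested.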

Other observations

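Blood transcripts bear on iron, since hemoglobin holds most of the body's iron, and the groups overlapped for all 3 genes tested. Hba-a1, an alpha globin gene, had 8.52, 8.62 and 8.14 in treated 1, 2 and 3 and 8.34, 8.34 and 8.27 in vehicle 1, 2 and 3, a difference of 0.11 (SE 0.14). Hbb, the beta globin gene, differed by -0.08 (SE 0.14). Alas2, the erythroid enzyme that starts heme synthesis, had 0.92, 1.03 and 0.32 in treated and 0.58, 0.53 and 0.29 in vehicle arrays, a difference of 0.29 (SE 0.20, limma adjusted p = 0.449). Within slide 1 Hba-a1, Hbb and Alas2 differed by 0.20, 0.08 and 0.45. All 3 were lowest in treated 3 within the treated group and in vehicle 3 within the vehicle group.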
